A study of Mus musculus with 4 samples.

Results

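Hedgehog signals pattern the ventral neural tube, and the genes described here encode the proteins that receive them. The 9 genes are *Ptch1*, *Smo*, *Gli1*, *Gli2*, *Gli3*, *Hhip*, *Boc*, *Cdon* and *Gas1*, found by their symbols among the 24421 genes of an expression table of sorted mouse neural tube cells. The comparison asks whether the genes that respond to Hedgehog rose in *Prdm13* mutant cells along with ventral transcription factors. The *Prdm13*GFP allele holds GFP in place of a working *Prdm13* gene, which encodes a zinc finger transcription factor of dorsal progenitors and early neurons. Both groups carry at least 1 copy of it, since cells were sorted for GFP at E11.5, a stage of the mouse embryo when neurons of the spinal cord are born. The controls, labelled Het, are *Prdm13*GFP/+ and keep 1 working allele. The mutants, labelled Homo, are *Prdm13*GFP/GFP and have none. No agent was given. The RNA of 7 Het embryos made 1 pool and that of 9 Homo embryos another, and 2 libraries of polyadenylated RNA were made from each. These libraries are technical replicates, so every SD and p-value below holds library preparation and sequencing error and no variation between embryos. The GFP gate marks cells that have turned on the *Prdm13* locus, and it takes both progenitors and young neurons.

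In the Hedgehog pathway, PTCH1 keeps the membrane protein SMO inactive until a Hedgehog ligand binds it. GAS1, CDON and BOC are coreceptors that bind the ligand at the cell surface and promote signalling, while HHIP binds it and takes it away. Active SMO acts through the primary cilium on the GLI transcription factors, of which GLI1 is an activator, GLI2 mainly an activator and GLI3 mainly a repressor. In the neural tube, *Ptch1*, *Gli1* and *Hhip* are induced by the signal and serve as its readouts, whereas *Gas1*, *Cdon* and *Boc* are repressed by it.

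The genes lie at separate places in the genome (GRCm38, RefSeq coordinates of the whole gene). *Gas1* (gene ID 14451) is on chromosome 13 from 60174405 to 60177535, *Cdon* (57810) on chromosome 9 from 35421528 to 35507652, and *Boc* (117606) on chromosome 16 from 44485045 to 44558870. *Ptch1* (19206) is on chromosome 13 from 63508328 to 63573460, *Smo* (319757) on chromosome 6 from 29735497 to 29761366, and *Hhip* (15245) on chromosome 8 from 79965850 to 80058060. *Gli1* (14632) is on chromosome 10 from 127329882 to 127341579, *Gli2* (14633) on chromosome 1 from 118834061 to 119054405, and *Gli3* (14634) on chromosome 13 from 15463723 to 15730026. *Gli1* overlaps the protein-coding gene *Arhgap9* by annotation. *Gli2*, *Gli3*, *Hhip*, *Boc* and *Cdon* each overlap an annotated noncoding RNA, and *Smo* a pseudogene. Whether reads were counted by strand is not given in the sources used here, so reads in a shared stretch cannot be told apart.

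RefSeq start sites were available for 7 of the 9 genes, all except *Gli1* and *Boc*. The 250 bases before the start site are shown for *Gas1*, the coreceptor gene with the highest level, for *Ptch1*, the response gene with the highest level, and for *Gli3*, whose level did not pass the test. They are written 5′ to 3′ on the strand of the gene.
Gas1, chr13:60177536-60177785, minus strand: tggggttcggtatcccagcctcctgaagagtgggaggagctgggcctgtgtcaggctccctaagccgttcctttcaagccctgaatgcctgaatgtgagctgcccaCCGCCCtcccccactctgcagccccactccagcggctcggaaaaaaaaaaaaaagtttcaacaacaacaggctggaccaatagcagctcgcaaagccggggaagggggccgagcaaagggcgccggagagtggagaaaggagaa
Ptch1, chr13:63565736-63565985, minus strand: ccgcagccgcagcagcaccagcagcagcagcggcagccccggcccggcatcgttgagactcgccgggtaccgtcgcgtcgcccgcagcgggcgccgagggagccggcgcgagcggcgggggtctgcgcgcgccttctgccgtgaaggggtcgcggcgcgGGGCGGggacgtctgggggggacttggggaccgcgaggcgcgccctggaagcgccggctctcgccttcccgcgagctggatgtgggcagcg
Gli3, chr13:15463473-15463722, plus strand: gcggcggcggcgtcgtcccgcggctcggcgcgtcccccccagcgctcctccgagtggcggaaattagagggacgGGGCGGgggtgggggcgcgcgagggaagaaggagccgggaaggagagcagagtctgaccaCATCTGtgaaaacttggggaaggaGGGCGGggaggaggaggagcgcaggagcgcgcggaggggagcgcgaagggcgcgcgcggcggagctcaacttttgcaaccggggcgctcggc
Capitals mark matches, as written or as the reverse complement, to 3 motifs searched on both strands, namely the GLI motif GACCACCCA, the E-box CANNTG and the SP1 motif GGGCGG, and no matches overlap. In these 3 windows the GLI motif had 0 matches, the E-box 1 (in *Gli3*) and the SP1 motif 4. Of the 32851 RefSeq windows of this length, 0.225% hold the GLI motif, 66.2% the E-box and 32.7% the SP1 motif. In the windows of the other 4 genes the GLI motif also had 0 matches. A match is a description of the letters only, and no match says nothing about sites elsewhere. The start sites used for *Ptch1* and *Cdon* lie 7725 and 30548 bases inside the annotated gene, so they are not its outermost ones.

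Reads were counted on genes and deposited as RPKM, a read density that accounts for exon length and library size. Whole reads could be recovered from the RPKM values, and they summed to 11673133 and 18566501 in the Het libraries and to 16572926 and 14017474 in the Homo libraries. The libraries of a pool differed by a median of 0.078 on the log2 scale, and by more than the sampling of reads, with a mean chi-square per gene of 2.43 in Het and 2.34 in Homo where sampling gives 1. *Prdm13* itself had 114 and 127 RPKM in Het and 310 and 324 RPKM in Homo (log2 fold change 1.40, SE 0.061, limma adjusted p = 3.6e-05). The transcript of the GFP allele also gives reads on *Prdm13*, and the RPKM therefore does not check the loss of the protein. A gene was tested when its mean RPKM was at least 1 in either group, which 12046 genes and 8 of the 9 members passed. It was called when the adjusted p was under 0.05 and the fold at least 1.5. Fold changes are on the scale log2(RPKM + 0.1), Homo minus Het, with the limma test and Benjamini-Hochberg adjustment over all genes tested. With 2 libraries a group, the smallest two-sided p of an exact permutation test is 0.333, so single values were not tested that way.

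The coreceptor genes were lower in the mutants, and none of the 9 genes was called higher. *Gas1* and *Cdon* were called lower, so 2 of the 8 members tested were called lower and 0 higher, where 2.67% of all genes tested were called lower and 3.65% higher. At any fold, 4 of the 8 had an adjusted p under 0.05 and were lower, namely *Gas1*, *Cdon*, *Boc* and *Ptch1*, where 9.95% of all genes tested were lower and 9.76% higher by that rule. In these 4 genes both Homo libraries were below both Het libraries, which held for 30.3% of all genes tested, and in 1 member, *Smo*, both were above, which held for 31.7%. *Smo*, *Gli1*, *Gli2* and *Gli3* did not pass the test. The median log2 fold change of the 8 was -0.29, against 0.010 over all genes tested. In a bulk sample, fewer cells of a type and less RNA per cell cannot be told apart.

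*Gas1* encodes a lipid-anchored coreceptor. It had 79.6 and 88.1 RPKM in the Het libraries and 42.1 and 44.6 RPKM in the Homo libraries, from 1908 to 5054 reads a library. The groups were far apart and did not overlap, and the mean fell from 83.9 ± 5.97 to 43.3 ± 1.76 RPKM (SD, n = 2 libraries). The log2 fold change was -0.95 (SE 0.064, 95% confidence interval -1.10 to -0.80, limma adjusted p = 0.00025), and the ratio of mean RPKM was 0.516.

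*Cdon* encodes a coreceptor of the immunoglobulin and fibronectin repeat family. Its RPKM was 16.6 and 17.4 in Het and 8.81 and 8.49 in Homo, from 838 to 2305 reads. Both mutant libraries were well under both controls, and the log2 fold change was -0.97 (SE 0.061, 95% confidence interval -1.12 to -0.82, limma adjusted p = 0.00018), a ratio of mean RPKM of 0.508.

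*Boc*, the close relative of *Cdon*, had 65.4 and 68.7 RPKM in Het and 48.5 and 50.5 RPKM in Homo, from 3057 to 5571 reads. The groups did not overlap and the difference was larger than the spread between libraries, but it was under 1.5-fold, so *Boc* was not called (log2 fold change -0.44, SE 0.051, limma adjusted p = 0.0024, ratio 0.738).

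Within a library, 1 of the 3 proportions among the coreceptor genes overlapped between groups and the others did not. *Gas1* had 4.78 and 5.05 times the RPKM of *Cdon* in Het and 4.78 and 5.25 times in Homo, and these ranges overlap. By contrast *Gas1* had 1.22 and 1.28 times the RPKM of *Boc* in Het and 0.867 and 0.883 times in Homo, with no overlap. *Cdon* had 0.255 and 0.254 times the RPKM of *Boc* in Het and 0.182 and 0.168 times in Homo, also with no overlap. The 3 coreceptor genes together had 162 and 174 RPKM in Het and 99.4 and 104 RPKM in Homo. Relative to *Smo* their sum was 4.86 and 4.80 in Het and 2.69 and 2.76 in Homo. These ratios were chosen after values were seen and are given without a test.

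**Figure D1:**
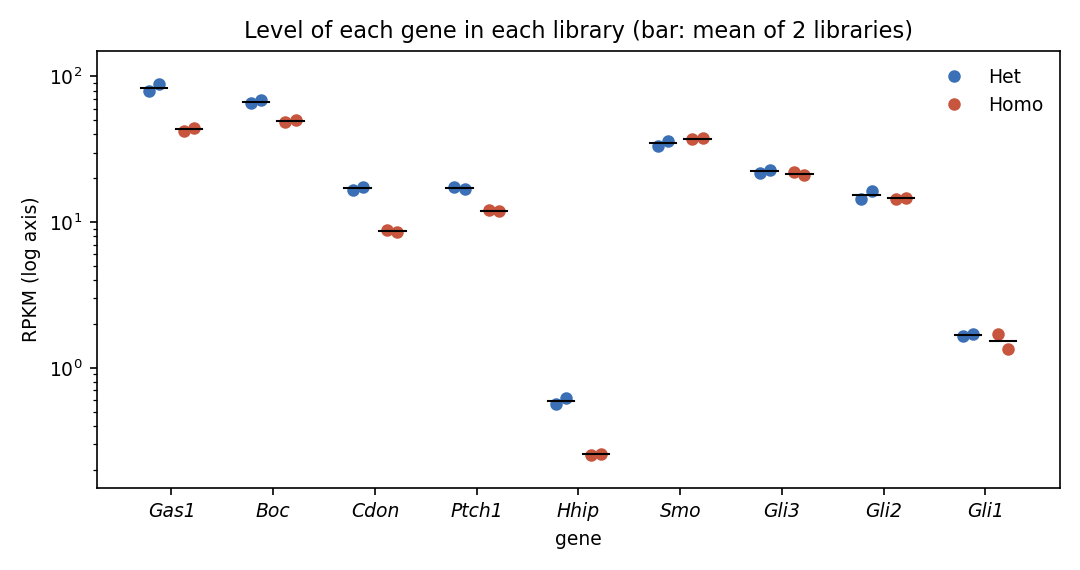
RPKM on a log axis of the 9 genes in each library, with 2 Het libraries in blue, 2 Homo libraries in red and a black bar at their mean. *Gas1*, *Boc*, *Cdon*, *Ptch1* and *Hhip* have both Homo points under both Het points, *Smo* has them slightly above, and the points of the 3 *Gli* genes overlap.

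Among the genes that respond to the signal, *Ptch1* was lower, *Hhip* was low in reads and lower, and *Gli1* did not pass the test. *Ptch1*, the receptor and the classic target gene, had 17.5 and 16.9 RPKM in Het and 12.1 and 11.9 RPKM in Homo, from 700 to 1332 reads. The groups did not overlap. Its log2 fold change was -0.51 (SE 0.056, 95% confidence interval -0.65 to -0.38, limma adjusted p = 0.0019), under the 1.5-fold needed for a call.

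*Hhip*, which encodes the decoy receptor, was under the RPKM filter. It had 0.562 and 0.625 RPKM in Het and 0.251 and 0.258 RPKM in Homo, from 59 and 104 reads against 37 and 32. These are few reads but above the limit of detection of 3, and the ratio of mean RPKM was 0.428. With limma voom on genes of at least 20 reads in a library, a fit added after the data were seen, its log2 fold change was -1.23 (SE 0.21, adjusted p = 7.1e-05). Without any filter in the RPKM fit, it was -0.97 with an adjusted p of 0.126.

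*Gli1*, the GLI activator that is itself induced by the signal, had 1.65 and 1.71 RPKM in Het and 1.71 and 1.34 RPKM in Homo, from 67 to 115 reads. The libraries overlapped, and the 95% confidence interval of its log2 fold change, -0.58 to 0.29, holds no rise of 1.5-fold (estimate -0.14, SE 0.18, limma adjusted p = 0.618). Of *Ptch1* and *Gli1*, the readouts tested, 0 were called higher.

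*Smo* and the other *Gli* genes showed the narrowest differences. *Smo*, the signal transducer, had 33.2 and 36.3 RPKM in Het and 37.0 and 37.5 RPKM in Homo, with the Homo libraries just above the Het libraries and a log2 fold change of 0.10 (SE 0.059, 95% confidence interval -0.04 to 0.24, limma adjusted p = 0.287). *Gli2* had 14.4 and 16.5 RPKM in Het and 14.4 and 14.7 RPKM in Homo. *Gli3*, the main GLI repressor, had 21.8 and 22.9 RPKM in Het and 21.9 and 21.1 RPKM in Homo. The libraries of both *Gli* genes overlapped between groups, and the confidence intervals of their log2 fold changes were -0.26 to 0.10 for *Gli2* and -0.19 to 0.08 for *Gli3*. A change as large as that of *Gas1* or *Cdon* lies outside these intervals, which cover technical error only.

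The proportions among the *Gli* genes were similar in both groups. *Gli3* had 1.51 and 1.39 times the RPKM of *Gli2* in Het and 1.52 and 1.44 times in Homo. It had 13.2 and 13.4 times the RPKM of *Gli1* in Het and 12.8 and 15.8 times in Homo. Each pair of ranges overlaps.

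RPKM is scaled by exon length, so the levels of the genes can be ordered within a group. In Het the order from the highest was *Gas1*, *Boc*, *Smo*, *Gli3*, *Ptch1*, *Cdon*, *Gli2*, *Gli1* and *Hhip*, and only *Ptch1* and *Cdon* had libraries that overlapped. In Homo it was *Boc*, *Gas1*, *Smo*, *Gli3*, *Gli2*, *Ptch1*, *Cdon*, *Gli1* and *Hhip*, and the libraries of all neighbours were apart. The coreceptor genes *Gas1* and *Boc* thus led in both groups and traded places, and *Gli2* passed *Ptch1* and *Cdon*. The response genes *Gli1* and *Hhip* were the lowest of the 9 in both.

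**Figure D2:**
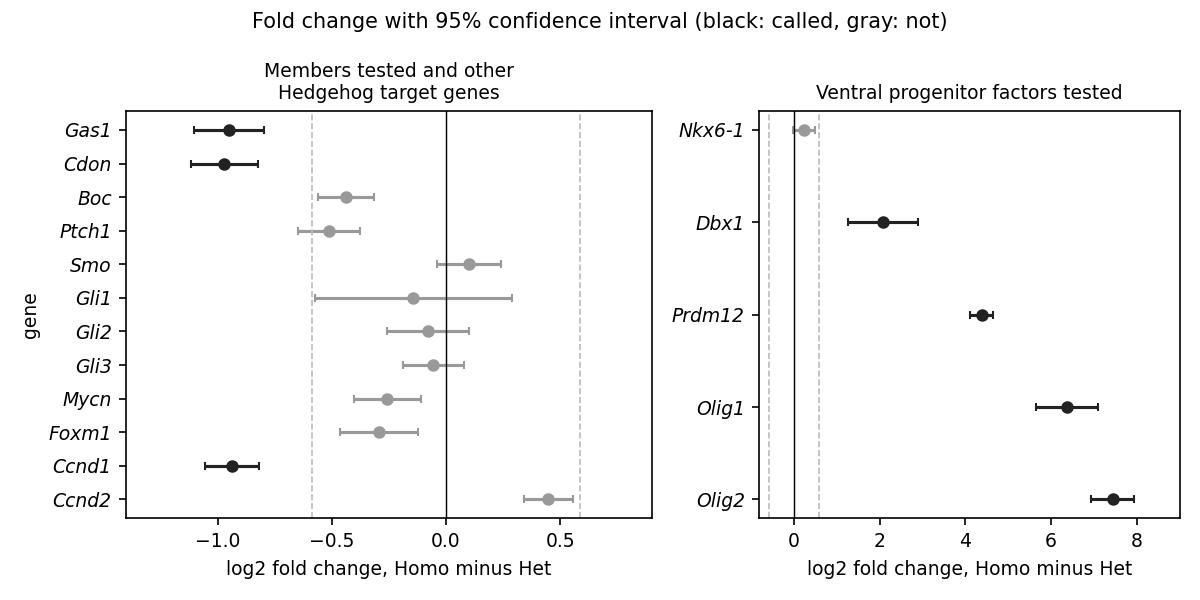
Log2 fold change (Homo minus Het) on the x axis, with its 95% confidence interval, for the 8 members tested and 4 other Hedgehog target genes (left) and the 5 ventral progenitor factors tested (right, on a wider axis), each gene on a row. Dashed lines mark 1.5-fold, and black points are called. *Gas1*, *Cdon* and *Ccnd1* lie near -1 while *Olig1*, *Olig2*, *Prdm12* and *Dbx1* lie between 2 and 8.

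Several ventral progenitor factors rose in the mutants, and others of the list did not. Of the 10 listed, 6 had both Homo libraries above both Het libraries and 1 had both below, where 20.6% and 19.2% of all genes of the table did. *Olig1*, *Olig2*, *Prdm12* and *Dbx1* were called higher. These 4 passed the RPKM filter through the Homo libraries alone, so a call could only be upward and their number is no measure of the list. *Olig2*, a bHLH factor of motor neuron progenitors, had 0 and 0.022 RPKM in Het and 17.04 and 21.3 RPKM in Homo. This is at most 1 read in a Het library against 675 and 709 reads, at least 180-fold higher in Homo when 3 reads in the shallower Het library are taken as the floor. *Olig1* had at most 3 reads in a Het library and 10.7 and 11.05 RPKM in Homo, at least 91.0-fold higher by the same floor. *Prdm12*, a PRDM factor of V1 progenitors, had 0.594 and 0.596 RPKM in Het and 13.4 and 15.4 RPKM in Homo (log2 fold change 4.38, SE 0.11). *Dbx1*, a homeobox factor of V0 progenitors, had 0.208 and 0.368 RPKM in Het and 1.42 and 1.58 RPKM in Homo (2.08, SE 0.34). The call of *Dbx1* is lost without Homo replicate 1 (2.15, limma adjusted p = 0.056) and without Homo replicate 2 (2.003, adjusted p = 0.068).

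The other ventral progenitor factors were not called or not tested. *Foxa2* and *Nkx2-2*, factors of the floor plate and of V3 progenitors that need the strongest signal, reached 0.123 and 0.126 RPKM at most in any library. *Nkx6-1*, a broad ventral factor, had 3.61 and 3.16 RPKM in Het and 3.87 and 4.195 RPKM in Homo and did not pass the test (log2 fold change 0.25, SE 0.11, limma adjusted p = 0.161). *Dbx2* had 0.533 and 0.312 RPKM in Het and 0.812 and 0.773 RPKM in Homo, and *Nkx6-2* had 0.227 and 0.401 RPKM in Het and 0.194 and 0.192 RPKM in Homo. Both were under the filter, with the Homo libraries above for *Dbx2* and below for *Nkx6-2*. *Nkx2-9* had at most 1 read in a library. *Shh*, the ligand, had 0.130 and 0.143 RPKM in Het and 0.277 and 0.439 RPKM in Homo, from 4 to 16 reads, and was not tested. *Foxa2*, *Nkx2-2*, *Nkx2-9* and *Shh* were named after their values were seen.

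Of the 16 ventral neuron genes listed, 7 had both Homo libraries above both Het libraries and 4 had both below. Over all genes of the table these shares were 20.6% and 19.2%. Only *Otp*, *Phox2a* and *Bhlhe22* were tested, and these 3 were called higher, where 3.65% of all genes tested were. *Otp* had 2.05 and 2.86 RPKM in Het and 31.4 and 37.0 RPKM in Homo. *Phox2a* had 0.967 and 1.49 RPKM in Het and 16.3 and 16.4 RPKM in Homo. *Bhlhe22* had 3.87 and 3.92 RPKM in Het and 10.7 and 11.2 RPKM in Homo. In all 3 genes both Homo libraries were above both Het libraries, and their log2 fold changes were 3.76, 3.66 and 1.47. The genes with both Homo libraries below were *Lhx3*, *Lhx4*, *Chat* and *Evx2*, motor neuron and V0 interneuron genes. They had at most 0.414 RPKM in any library and were not tested. *Lhx4* had 9 and 39 reads in Het and 6 and 3 in Homo, and *Chat* 4 and 9 in Het and 1 and 2 in Homo. The untested genes with both Homo libraries above were *En1*, *Sim1*, *Evx1* and *Gata3*. *En1* had 3 and 10 reads in Het and 32 and 36 in Homo, and *Sim1* 24 and 35 in Het and 88 and 71 in Homo. *Evx1* and *Gata3* had at most 0.381 and 0.096 RPKM in any library. All the untested genes of this list named here were chosen after their values were seen.

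Class I progenitor factors, which the ventral signal represses, did not move as a group. *Irx3* was called higher, with 36.1 and 43.7 RPKM in Het and 56.4 and 64.4 RPKM in Homo (log2 fold change 0.60, SE 0.10, limma adjusted p = 0.010). This call is lost in 8 of the 15 alternative analyses, among them without Het replicate 1 (0.46, limma adjusted p = 0.041) and without Homo replicate 2 (0.51, adjusted p = 0.109). *Pax7* had a log2 fold change of -0.35, *Pax6* of 0.26 and *Pax3* of -0.09.

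**Figure D3:**
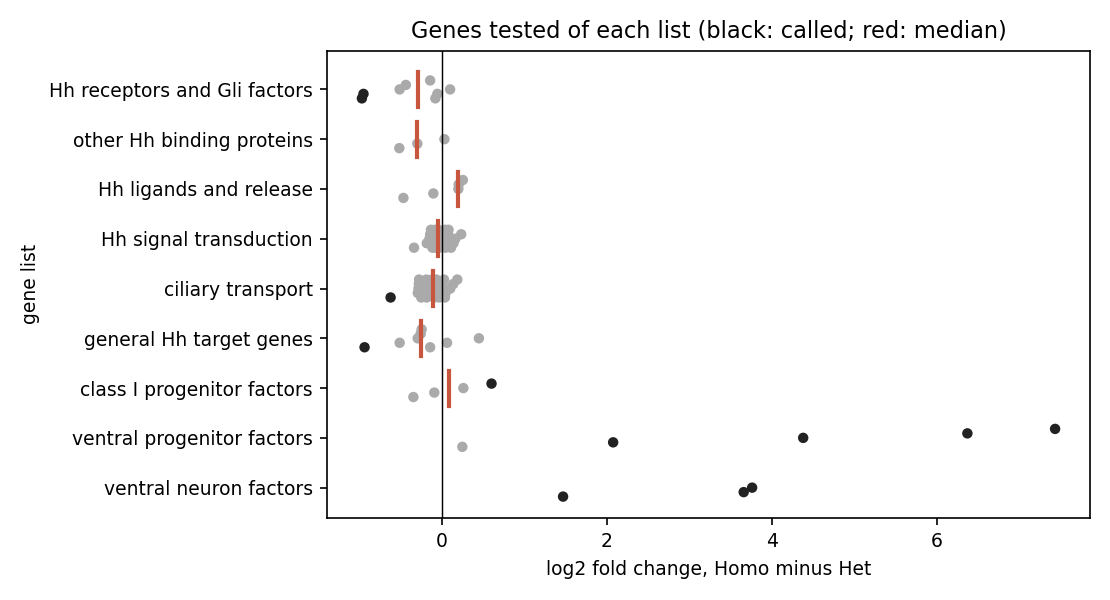
Log2 fold change (Homo minus Het) of every tested gene of 9 lists, 1 point a gene, with called genes in black. A red line marks the median of each list, except for the ventral lists, for which none is drawn. The medians of the Hedgehog lists run from -0.30 (3 genes tested) to 0.20 (5 genes tested), while *Olig2*, at 7.43, lies farthest to the right.

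The 9 general Hedgehog target genes listed include the members *Ptch1*, *Gli1* and *Hhip* described above, and 8 were tested. Of these, 1 was called lower and 0 higher, where 2.67% and 3.65% of all genes tested were. The gene called was *Ccnd1*, which encodes cyclin D1 and had 130 and 139 RPKM in Het and 70.5 and 70.0 RPKM in Homo (log2 fold change -0.94, SE 0.049, limma adjusted p = 8.0e-05). *Ccnd2*, which encodes cyclin D2, was higher with 64.6 and 66.7 RPKM in Het and 88.9 and 90.4 RPKM in Homo, short of 1.5-fold (0.45, SE 0.045, limma adjusted p = 0.0014). *Mycn* and *Foxm1*, growth and mitotic factors, had log2 fold changes of -0.26 and -0.29 with adjusted p values of 0.030 and 0.034. The median of the 8, *Ptch1* and *Gli1* among them, was -0.25. Within a library, *Ccnd1* had 2.02 and 2.08 times the RPKM of *Ccnd2* in Het and 0.793 and 0.775 times in Homo.

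The rest of the pathway showed few calls, where 2.67% of all genes tested were called lower and 3.65% higher. In lists of this length, 0 calls is near those shares. Among 4 other Hedgehog binding proteins, 3 were tested and 0 called, and *Gpc6*, a glypican, had a log2 fold change of -0.52 (limma adjusted p = 0.013). Among 8 genes for ligands and their release, 5 were tested and 0 called. *Scube3*, a secreted protein of the SCUBE family, had 12.7 and 14.2 RPKM in Het and 9.86 and 9.59 RPKM in Homo (-0.47, limma adjusted p = 0.0072), while *Scube2* had a log2 fold change of 0.20 (adjusted p = 0.053). All 29 genes of signal transduction between SMO and GLI were tested and 0 called. Their median log2 fold change was -0.04, the lowest -0.34 and the highest 0.23. The extremes were *Evc*, which encodes a ciliary protein that acts with SMO, and *Arrb2*, a beta-arrestin gene (adjusted p 0.015 and 0.025), and both were named after their values were seen. The casein kinase genes *Csnk1a1* and *Csnk1d* and *Prkar1a*, which encodes a regulatory subunit of protein kinase A, had the highest RPKM of the list and none passed the test.

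The ciliary transport list of 30 genes gave 1 call lower and 0 higher, near the 2.67% of all genes called lower. *Dync2h1*, the heavy chain of the motor that returns cargo from the ciliary tip, had 5.72 and 5.70 RPKM in Het and 3.85 and 3.51 RPKM in Homo (log2 fold change -0.62, SE 0.088, limma adjusted p = 0.0050). In 5 of the 15 alternatives it fell short of the call, among them without Het replicate 2 (-0.62, adjusted p = 0.056) and without Homo replicate 2 (-0.56, adjusted p = 0.061). With *Dync2h1*, 4 genes of the list had an adjusted p under 0.05 and were lower, where 9.95% of all genes tested were. A negative fold change was found in 23 of the 30 (76.7%) and in 47.6% of all genes tested. The median was -0.11.

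**Figure D4:**
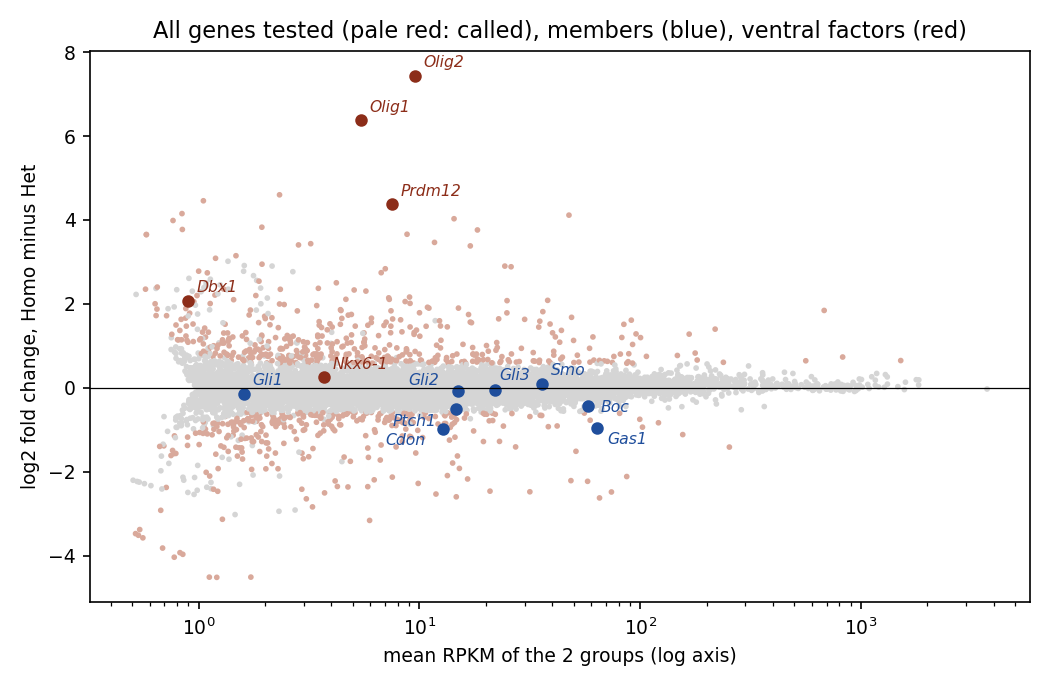
Log2 fold change (Homo minus Het) on the y axis against the mean RPKM of both groups on a log axis, for the 12046 genes tested, with called genes in pale red, the 8 members tested in blue and the 5 ventral factors in dark red. *Cdon* and *Gas1* lie within the called genes below 0 and the other members between -0.51 and 0.10, whereas *Olig2*, at 7.43, is the highest point.

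The genes with the profile over the 4 libraries most like that of *Cdon*, among 6895 other genes tested with a mean RPKM of at least 10, were *Ccnd1*, *Tfap2a*, *Nptx1*, *Nedd9* and *Plch1*. The likeness was the Euclidean distance between log2(RPKM + 0.1) values centred on the mean of each gene. It ran from 0.048 for *Ccnd1* to 0.094 for *Plch1*. Their log2 fold changes were -0.94, -0.93, -0.94, -0.91 and -1.03 in that order.

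Markers of other cells and of the state of the cells moved with the comparison in part. Genes of neural progenitors summed to 2482 and 2498 RPKM in Het and 2487 and 2585 RPKM in Homo. Of the 11, 4 had an adjusted p under 0.05 and were higher and 3 lower, where 9.76% and 9.95% of all genes tested were. Among the higher were *Sox3*, *Hes5*, *Notch1* and *Prom1*, with log2 fold changes of 0.54 to 0.26. Among the lower was *Sox2*, a progenitor factor, which had 150 and 163 RPKM in Het and 111 and 113 RPKM in Homo (log2 fold change -0.48, SE 0.054, limma adjusted p = 0.0021). Genes of neurons in general summed to 1995 and 2055 RPKM in Het and 2534 and 2647 RPKM in Homo. *Tubb3* had the highest level, with 1017 and 1062 RPKM in Het and 1265 and 1372 RPKM in Homo. Of the 12, 4 were called higher (*Nefl*, *Nefm*, *Gap43* and *Stmn2*) and 1 lower (*Snap25*), where 3.65% and 2.67% of all genes tested were. At any fold, 7 had an adjusted p under 0.05 and were higher and 1 lower, where 9.76% and 9.95% of all genes tested were. *Dcx*, *Map2*, *Rbfox3* and *Ina* had negative fold changes and did not pass the test. The part of these changes in the lower coreceptor and *Ptch1* levels was not tested.

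Set against a progenitor gene in the same library, the result depended on the gene. *Gas1* was 0.532 and 0.540 times *Sox2* in Het and 0.379 and 0.393 times in Homo. *Cdon* was 0.111 and 0.107 times in Het and 0.0795 and 0.0748 times in Homo. *Boc* was 0.437 and 0.421 times in Het and 0.437 and 0.445 times in Homo, and *Ptch1* 0.117 and 0.104 times in Het and 0.109 and 0.105 times in Homo. Relative to *Sox2*, the groups were apart for *Gas1* and *Cdon*, overlapped for *Ptch1* and nearly met for *Boc*. Relative to *Nes*, another progenitor gene, which did not pass the test (log2 fold change 0.10), the groups were apart for all 4. *Gas1* was 0.523 and 0.569 times *Nes* in Het and 0.258 and 0.267 times in Homo, and *Cdon* 0.109 and 0.113 times in Het and 0.0540 and 0.0508 times in Homo. *Boc* was 0.429 and 0.443 times in Het and 0.297 and 0.302 times in Homo, and *Ptch1* 0.115 and 0.109 times in Het and 0.0744 and 0.0712 times in Homo. So only *Gas1* and *Cdon* were lower against both. The choice of *Sox2* and *Nes* was made after values were seen.

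**Figure D5:**
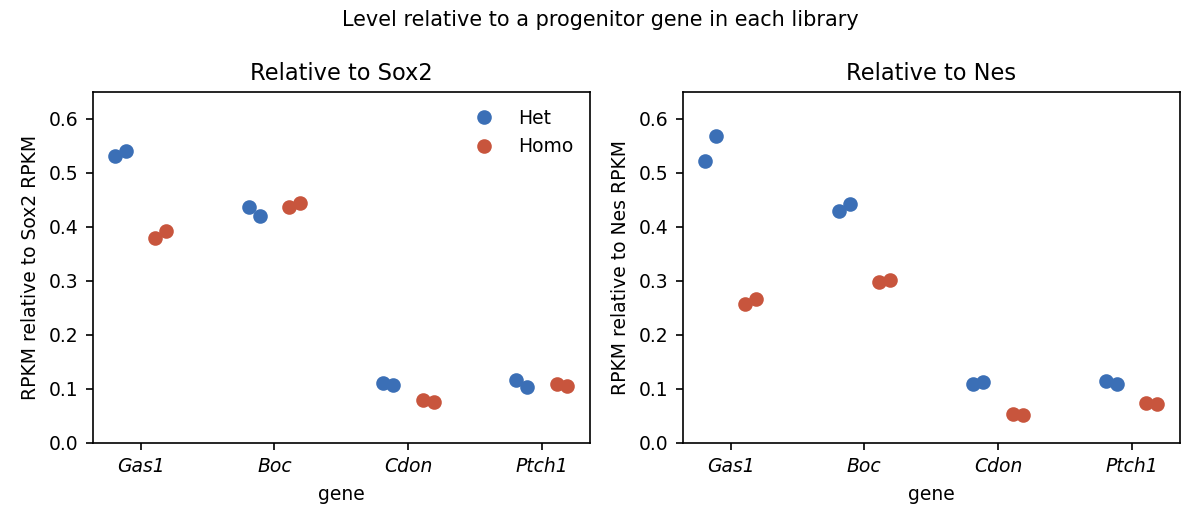
RPKM of 4 members divided by the RPKM of *Sox2* (left) or *Nes* (right) in the same library, on a y axis from 0, with 2 Het libraries in blue and 2 Homo libraries in red. The Homo points lie under the Het points for *Gas1* and *Cdon* in both panels, and for *Boc* and *Ptch1* only relative to *Nes*.

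Mesenchyme also expresses *Gas1*, *Boc* and *Ptch1*, so its markers bear on the purity of the sort. The 13 mesenchyme and somite markers summed to 6.89 and 7.38 RPKM in Het and 7.08 and 7.17 RPKM in Homo. The collagen genes *Col1a2*, *Col3a1* and *Col1a1* reached 1.70, 1.05 and 1.02 RPKM. *Twist1* and *Prrx1* were at most 0.583 and 0.212 RPKM. These 5 genes were named after their values were seen. *Pdgfrb* alone was called higher, with 1.17 and 1.43 RPKM in Het and 2.48 and 2.50 RPKM in Homo. The 6 floor plate markers summed to 22.5 and 23.0 RPKM in Het and 17.3 and 18.6 RPKM in Homo, mostly *Ntn1*. *Ntn1* alone had both Homo libraries below both Het libraries (log2 fold change -0.54, limma adjusted p = 0.0014), and 3 of the 6 had both above. Over all genes of the table, 19.2% had both below and 20.6% both above. *Foxj1*, a ciliogenesis factor of the floor plate list, was called higher after passing the filter through Homo alone, with 0.737 and 0.847 RPKM in Het and 1.38 and 2.24 RPKM in Homo. The 7 endothelial markers reached 2.74 and 3.64 RPKM in Het and 3.52 and 4.05 RPKM in Homo, and the 4 microglial markers at most 0.264 RPKM in sum. The 9 erythroid markers summed to 47.2 to 49.7 RPKM over the 4 libraries, and 4 of them (*Hba-a1*, *Hba-a2*, *Hbb-bt* and *Hbb-bs*) were listed at 0 in every library. The 5 neural crest and glia markers summed to 12.2 and 15.2 RPKM in Het and 6.93 and 7.30 RPKM in Homo, mostly *Foxd3*, which also marks dorsal neurons and was called lower. The 5 roof plate markers summed to 2.69 and 2.92 RPKM in Het and 2.59 and 2.55 RPKM in Homo. *Wnt1* was called lower (log2 fold change -0.87) and alone had both Homo libraries below both Het libraries. In 3 of the 5 both Homo libraries were above, and these 3 were under the filter. The 6 dorsal root ganglion markers summed to 16.4 and 17.5 RPKM in Het and 16.5 and 16.7 RPKM in Homo, mostly *Ntrk2*, which spinal neurons also express, and *Ntrk3* was called higher (0.93). The dorsal lineage that the gate selects was present by level, with *Lbx1* at no less than 59.7 RPKM in every library. Of its 10 markers 4 were called higher and 6 lower, where 3.65% and 2.67% of all genes tested were. Beside *Prdm13* itself, *Ptf1a*, *Tlx3* and *Lmx1b* were called higher with log2 fold changes of 1.81, 4.11 and 3.46, and *Pax2*, *Lhx1*, *Lhx5*, *Gsx1*, *Gsx2* and *Lbx1* lower, with -2.62, -2.48, -2.12, -1.18, -1.72 and -0.61 in that order. Among these markers, single libraries decided some calls. *Pdgfrb* is not called without Homo replicate 1 (limma adjusted p = 0.076) or 2 (0.092), *Wnt1* not without any 1 library (0.053 to 0.077), *Foxj1* not without Het replicate 1 (0.130), Het replicate 2 (0.1001) or Homo replicate 2 (0.159), and *Lbx1* not without Het replicate 2 (0.053) or Homo replicate 1 (0.065).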

How the data were processed

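GFP+ cells of E11.5 mouse neural tubes were profiled by RNA-seq in 2 Het and 2 Homo libraries, grouped by their labels. The authors aligned reads with TopHat2 2.1.0 to mm10, counted them over RefSeq exons with featureCounts and deposited RPKM after TMM normalization in edgeR 3.6.8. Values were used as deposited, and ChIP-seq data of the study were not used here. For each library, a whole read count per gene was solved from the RPKM, guided by GENCODE vM21 exon lengths. This gave whole reads in 19198 of 19200 genes above 0 (99.99%). Genes averaging 1 RPKM or more in Het or in Homo were fitted with limma 3.58.1 (lmFit, eBayes with a trend) in R 4.3.3 on log2(RPKM + 0.1), two-sided, with Benjamini-Hochberg adjustment. The filter, the pseudocount and the fold threshold of 1.5 bear on which genes are called. The limit of detection is 3 reads, for counting error only.

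Tests were checked on simulated data. Python 3.11.15 with numpy 2.4.6, pandas 2.3.3 and matplotlib 3.10.9 was used for tables and plots. The members, the gene lists and the alternatives were chosen with earlier results of these data known. Named are all members, the called genes of the pathway lists, up to 3 further genes of a list by mean RPKM, leading and called marker genes, and the 5 genes nearest to *Cdon*. Others are marked as chosen after values were seen. Another 4 listed genes have been taken out of the lists and their sums with values already known, and nothing is reported here for them. The 15 alternatives were pseudocounts of 1 and 0.01, no filter, median ratio and quantile scaling, eBayes without a trend, unadjusted p, limma's treat, a replicate block, each library left out in turn, and limma voom on whole reads with 2 filters, the second of which was added after seeing the data.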

Additional observations from a re-analysis of the deposited data

How the results depend on the processing

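*Gas1* and *Cdon* were called lower in 14 of 15 alternatives each, and no other tested member was called in any. *Hhip* was called in the voom fit with the 20-read minimum. Without a filter on RPKM, with all 24421 genes tested, 0 members were called: *Cdon* at -0.97 had an adjusted p of 0.056 and *Gas1* at -0.95 one of 0.069. The cause was not tested. That setting also left 44 genes called (30 higher, 14 lower) of 762 and 2 of 10 genes of the pathway lists. The treat test called 208 genes (131 higher, 77 lower). Leaving out each library in turn gave 470 to 687 calls in all, 258 to 437 higher and 212 to 266 lower, the fewest without Homo replicate 2. It gave -1.02 to -0.88 for *Gas1*, -1.003 to -0.94 for *Cdon*, -0.54 to -0.49 for *Ptch1* and -0.47 to -0.40 for *Boc*. The sign of *Gli1* (-0.31 to 0.025) turned without Homo replicate 2 and that of *Gli2* (-0.17 to 0.016) without Het replicate 2. With the replicate block, 459 genes were called higher and 342 lower, and the members kept their calls. Same-numbered libraries deviated from their group means with a correlation of 0.047, so the numbers do not pair them. Median ratio and quantile scaling moved the median gene by -0.0036 and -0.013. The libraries are technical, so nothing here measures differences between embryos, and *Gli1* and *Hhip* rest on at most 115 reads in a library.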

Other observations

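The progenitor markers did not move as 1 group. *Sox1* was called lower, with 14.0 and 15.2 RPKM in Het and 9.02 and 9.05 RPKM in Homo, and *Sox2* and *Hes1* were lower with log2 fold changes of -0.48 and -0.29 (limma adjusted p = 0.0021 and 0.022). In the same libraries *Sox3*, *Hes5*, *Notch1* and *Prom1* were higher, with log2 fold changes of 0.54, 0.42, 0.37 and 0.26 and adjusted p values from 0.0056 to 0.023, while *Vim*, *Fabp7*, *Msi1* and *Nes* did not pass the test. SOX1, SOX2 and SOX3 are related factors of neural progenitors, and HES1 and HES5 are effectors of NOTCH1.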
